A study of Mus musculus with 6 samples.

Results

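The 9 genes described here encode the enzymes of serine synthesis (Phgdh, Psat1 and Psph) and of the folate-bound one-carbon pathway that serine feeds (Shmt1, Shmt2, Mthfd1, Mthfd1l, Mthfd2 and Tyms). They were chosen by pathway. Their probes were found on the arrays through the RefSeq accession of each non-control probe. This gave 14 probes for the 9 genes among 39429 probes and 20283 named genes. Expression was compared in macrophages that had been derived from the bone marrow of C57BL/6 mice aged 6 to 8 weeks, which the labels call M2, the alternatively activated type. Treated cells spent 6 h in complete DMEM with WGP, and control cells spent 6 h in complete DMEM alone. WGP are whole glucan particles, yeast cell wall particles made mostly of beta-glucan. The labels give neither the polarizing agent nor the number of mice or cultures behind the samples, so a p-value here reflects nothing beyond the spread among these samples, and that spread may be technical. RNA labelled with Cy3 was hybridised to 1-colour Agilent arrays, and each group had n = 2 independent arrays, replicates 1 and 2. The deposited files of replicate 3 held no array of their own. Median spot signal and background differed from those of the group's replicate 1 at 0 of 44397 spots. The processed signals were 1.3 times those of WGP replicate 1 (to within 0.488%) for WGP, and the average of both independent arrays (to within 0.695%) for medium.

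A level is the log2 processed signal (the spot's intensity after background subtraction) less that array's own 75th percentile, and changes are WGP minus medium on that log2 scale. The 75th percentile was 59.2 and 55.9 on the WGP arrays and 86.1 and 68.7 on the medium arrays, and 46.6% and 45% of probes with WGP, against 50.7% and 46.6% in medium, were well above background by the scanner software's flag. Of 9 macrophage markers with a named probe, 9 were well above background on all 4 arrays, among them the M2 marker Mrc1, while the M2 markers Arg1 and Retnla were well above background on 0 arrays and Chil3 on 3. Of 21 named markers of other cell types, 6 were well above background on all 4 arrays (Cd3e of T cells, Elane of granulocyte precursors, Zbtb46 of dendritic cells, Col1a1 and Col1a2 of fibroblasts and Pecam1 of endothelium), and 13 on 0 arrays, Cd3d, Cd3g and Ms4a1 among them. The level of Cd3e was 3.83 with WGP and 3.84 in medium, that of Elane 4.02 and 3.95, and that of Col1a2 3.16 and 3.28. The summed scaled signal of the 21 markers was 39.9 and 46.6 on the WGP arrays and 46.3 and 40.6 on the medium arrays, so the groups overlapped. In limma's test 2 of the 9 macrophage markers were higher and 4 lower with WGP. Of 7 tested markers of other cell types 0 were higher and 1, the B cell gene Cd79a, was lower. Over all genes tested, 23.5% were higher and 17.2% lower. The part of these markers in the members' values was not tested. For replicates 1 and 2, replicate number was also slide number per the file headers. WGP was at position 3 and medium at position 1 of both slides, so treatment and position cannot be told apart. In these bulk samples, fewer cells that express a gene and less RNA of it per cell cannot be told apart either.

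Serine synthesis branches from glycolysis. Phosphoglycerate is oxidised by PHGDH, aminated by PSAT1 and dephosphorylated by PSPH, and the resulting serine is split by a serine hydroxymethyltransferase (SHMT1 in the cytosol, SHMT2 in mitochondria) into glycine and a one-carbon unit on tetrahydrofolate. Mitochondria oxidise that unit to formate through MTHFD2 and MTHFD1L, formate is exported, and the cytosolic enzyme MTHFD1 returns it to folate, where it serves purine synthesis, thymidylate synthesis by TYMS and methionine regeneration. Genes of serine synthesis and of the mitochondrial arm are known targets of the stress-responsive transcription factor ATF4.

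The genes that passed the test belong to the mitochondrial formate branch and to thymidylate synthesis. Mthfd1l was 2.02-fold higher with WGP and Tyms was 1.57-fold lower. Mthfd2 was too dim for the test. Its value of 1.45-fold higher is no firm lower bound, since only WGP replicate 1 was well above background. The genes of serine synthesis and the hydroxymethyltransferases did not pass the test. Of 8 genes tested, 1 was higher and 1 lower in limma's test (adjusted p under 0.05), where 23.5% of all 10948 genes tested were higher and 17.2% lower, or 40.7% in either direction. Of all genes called, 57.77% were higher. With arrays scaled to their median in place of the 75th percentile that share was 72.97%, the median change of all genes was 0.20, and the members called were Mthfd1l and Psat1. The median change was 0.16 over the 8 genes and 0.034 over all genes tested. The members' median was 0.28 without medium replicate 1, 0.0077 without medium replicate 2 and 0.32 with median scaling. The WGP and medium arrays did not overlap at 5 of the 8 genes, against 75% of all genes. At 3 of them WGP was higher (41.1% of all genes) and at 2 lower (33.9%). With slide as a block, limma called 37.3% of all genes and the same members, Mthfd1l and Tyms.

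**Figure D1:**
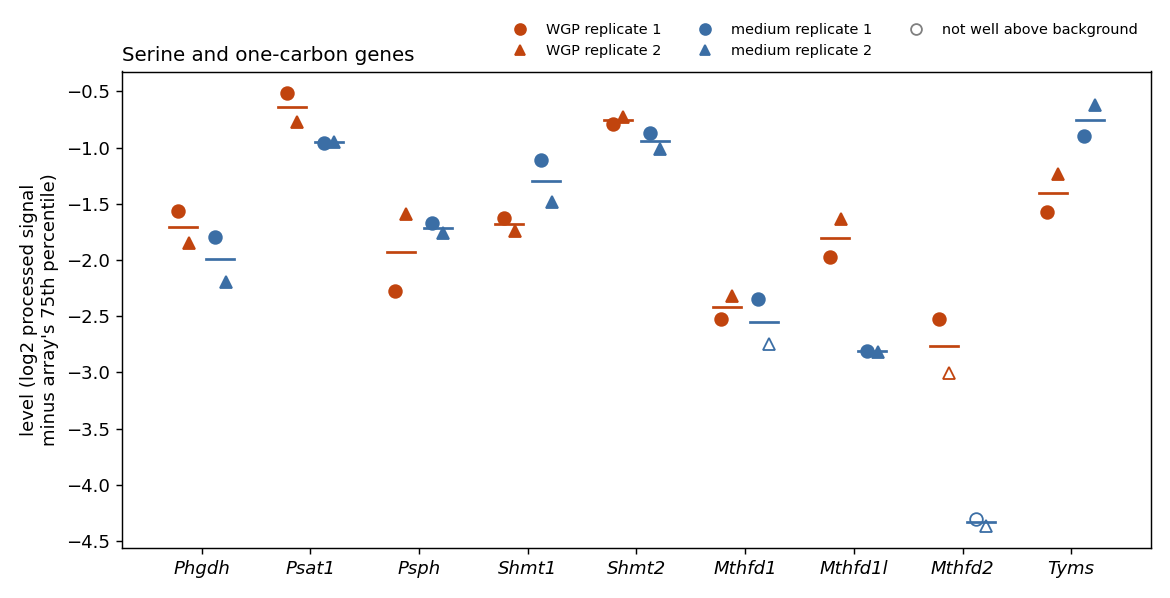
Level of each gene (log2 processed signal relative to the array's 75th percentile) on the WGP arrays (red, left) and the medium arrays (blue, right), for the brightest kept probe, or for the only probe of Mthfd2. Circles are replicate 1, triangles replicate 2, bars group means, and open symbols were not well above background. At Mthfd1l and Mthfd2 both WGP arrays lay above both medium arrays, and at Tyms both lay below.

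The promoter windows of the genes called, Mthfd1l and Tyms, of Mthfd2, the partner of Mthfd1l in the formate route, and of Phgdh, the first enzyme of serine synthesis, are shown so that their sequence can be set beside these changes. Each runs 5′ to 3′ from 250 bases before to 50 bases after the gene's start in RefSeq (GRCm38.p6), at chr10:3972825-3973124 on the plus strand for Mthfd1l, chr6:83317555-83317854 on the minus strand for Mthfd2, chr5:30073576-30073875 on the minus strand for Tyms and chr3:98339920-98340219 on the minus strand for Phgdh. Capitals mark matches, on either strand, to 1 of 4 motifs: the C/EBP-ATF response element bound by ATF4 (CARE, TGATGNAAN), the cAMP response element (CRE, TGACGTCA), the E-box of MYC and related factors (CACGTG) and the antioxidant response element bound by NRF2 (ARE, TGACNNNGC).
Mthfd1l: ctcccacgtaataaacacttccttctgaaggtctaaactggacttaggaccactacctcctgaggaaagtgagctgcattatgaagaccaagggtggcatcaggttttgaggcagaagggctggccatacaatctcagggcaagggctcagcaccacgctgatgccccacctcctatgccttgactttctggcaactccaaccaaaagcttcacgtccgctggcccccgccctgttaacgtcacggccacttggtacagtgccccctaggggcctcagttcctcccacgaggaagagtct
Mthfd2: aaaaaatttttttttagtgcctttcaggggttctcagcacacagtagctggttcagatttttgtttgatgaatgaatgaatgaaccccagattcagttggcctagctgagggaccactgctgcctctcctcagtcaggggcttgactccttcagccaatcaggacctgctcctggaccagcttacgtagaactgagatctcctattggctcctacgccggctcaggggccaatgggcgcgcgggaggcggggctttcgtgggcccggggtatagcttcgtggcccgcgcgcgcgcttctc
Tyms: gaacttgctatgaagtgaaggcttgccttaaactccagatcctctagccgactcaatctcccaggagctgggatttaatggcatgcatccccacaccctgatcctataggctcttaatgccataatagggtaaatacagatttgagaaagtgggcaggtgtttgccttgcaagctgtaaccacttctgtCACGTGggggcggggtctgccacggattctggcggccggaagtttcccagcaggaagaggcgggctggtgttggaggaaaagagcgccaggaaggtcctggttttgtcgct
Phgdh: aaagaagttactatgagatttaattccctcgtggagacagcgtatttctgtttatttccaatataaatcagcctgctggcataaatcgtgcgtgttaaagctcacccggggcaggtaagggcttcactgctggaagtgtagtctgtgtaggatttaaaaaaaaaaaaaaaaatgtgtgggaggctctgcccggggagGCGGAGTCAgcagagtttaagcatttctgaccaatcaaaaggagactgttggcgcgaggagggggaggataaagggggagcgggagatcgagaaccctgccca

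Tyms had an E-box that starts 61 bases before the start, and Phgdh had an ARE match that starts 53 bases before it. In all, 9 genes had 10 windows, since Psat1 has 2 starts. An E-box was in 1 of these windows (7.15% of all 32851 windows of this length), an ARE in 2 (12.4%), the other being that of Psph, a CARE in 0 (3.95%) and a CRE in 0 (1.79%). The windows of Mthfd1l and Mthfd2 held no match and so have no capitals, and none of the 10 windows held matches to more than 1 motif, so no matches overlapped. A match is a description of the letters and not a binding site, and a window without a match says nothing of the factor.

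In the mitochondrial arm, Mthfd1l, the formate-releasing synthetase, had processed signals of 15.1 and 18.0 on the WGP arrays, against 12.3 and 9.73 on the medium arrays. Both WGP arrays were above both medium arrays although the WGP arrays were dimmer as a whole. Its level averaged -1.80 ± 0.24 with WGP and -2.81 ± 0.0088 in medium (SD, n = 2 each), a change of 1.01 ± 0.15 (SE, adjusted p = 0.011 in limma) that was 0.84 on slide 1 and 1.19 on slide 2. The second probe of Mthfd1l (A_52_P167278) read 16.8 and 19.3 with WGP and 10.6 and 6.37 in medium. It was not well above background on either medium array. With a floor set for medium, it was at least 2.56-fold higher with WGP. For this bound the probe was given, on each medium array, the lowest level seen there among probes well above background, or its own level if higher. On medium replicate 1 its own level (-3.02) was above that lowest level (-3.55). Such a bound therefore depends on the floor chosen and is not strict. The measured means of that probe were -1.68 ± 0.20 with WGP and -3.23 ± 0.29 in medium (SD, n = 2 each). With every kept probe as a feature, where 34.3% of 18443 probes were called by limma, the first Mthfd1l probe passed (adjusted p = 0.0156). The second had an adjusted p of 0.0113 but was kept through the WGP arrays alone, where it is high, so its p adds no separate support. No other of the 11 kept probes of the members was called. The call of Mthfd1l was lost with normexp background correction (change 0.24, adjusted p = 0.0635), with no filter on dim probes (adjusted p = 0.0602), and on leaving out an array (adjusted p = 0.0544 less WGP replicate 2, 0.0507 less medium replicate 1 and 0.0792 less medium replicate 2).

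Mthfd2, the mitochondrial dehydrogenase and cyclohydrolase that precedes MTHFD1L in the formate route, was read by 1 probe, which had processed signals of 10.3 and 6.97 with WGP, against 4.36 and 3.33 in medium. WGP replicate 1 alone was well above background, so the gene did not pass the filter, which asks for both arrays of at least 1 group. The measured levels averaged -2.76 ± 0.34 with WGP and -4.34 ± 0.045 in medium (SD, n = 2 each), a difference of 1.57 that was 1.78 on slide 1 and 1.36 on slide 2, with no overlap between the groups. Since neither medium array was well above background, that difference rests on unmeasured medium levels. A value built as the bound for Mthfd1l was 1.45-fold higher with WGP. It is no firm lower bound, because WGP replicate 2 (level -3.00), which enters its WGP mean, was itself not well above background. Normexp background correction, whose offset of 50 exceeds all 4 of these signals and so shrinks differences by construction, left a measured difference of 0.34.

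Shmt2, the mitochondrial hydroxymethyltransferase, had signals of 34.3 and 33.7 with WGP and 47.1 and 34.1 in medium. After scaling, its level averaged -0.76 ± 0.041 with WGP and -0.94 ± 0.099 in medium (SD, n = 2 each). The change of 0.18 ± 0.11 (SE) did not pass limma's test (adjusted p = 0.233), although the groups did not overlap, and its 95% interval ran from -0.11 to 0.47. Its cytosolic counterpart Shmt1 read 19.2 and 16.7 with WGP, against 39.8 and 24.6 in medium, and averaged -1.68 ± 0.084 with WGP and -1.30 ± 0.26 in medium. Both WGP arrays were below both medium arrays, but the change of -0.39 ± 0.16 (SE) did not pass either (adjusted p = 0.128, interval -0.83 to 0.054). A second Shmt1 probe was well above background on 0 arrays. The change of Shmt2 minus that of Shmt1, a ratio within each array that rescaling an array cannot alter, was 0.57 ± 0.14 (SE), with 0.59 on slide 1 and 0.54 on slide 2. That SE came from the spread of this difference alone over the 4 arrays, not from limma. The exact permutation test over the 4 arrays gave a two-sided p of 0.333, the smallest that 2 arrays against 2 can give, and this pair was set side by side with the values known.

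**Figure D2:**
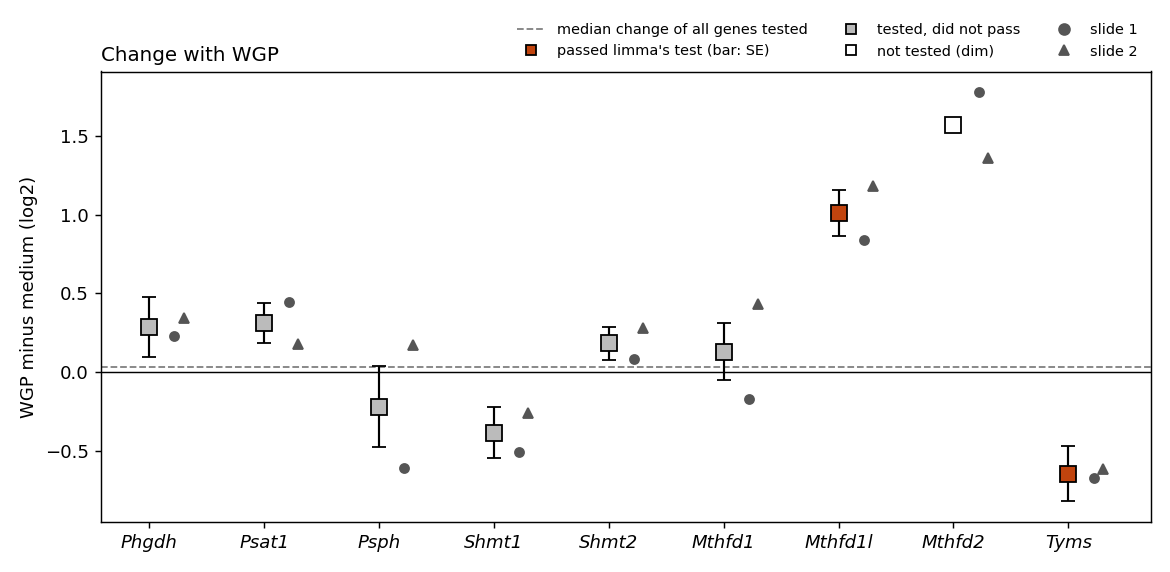
Change of each gene, WGP minus medium, on the log2 scale (squares, with SE bars from limma for the genes tested), with the difference on each slide beside it (circle for slide 1, triangle for slide 2). Mthfd1l lies at 1.01, Tyms at -0.65 and the other tested genes between -0.39 and 0.31, while Mthfd2 is drawn at its measured 1.57, whose medium values were not well above background.

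In the cytosolic arm, Tyms, the thymidylate synthase that makes the thymine nucleotide of DNA, had signals of 19.9 and 23.7 with WGP, against 46.2 and 44.7 in medium. Its level averaged -1.41 ± 0.24 with WGP and -0.76 ± 0.20 in medium (SD, n = 2 each), and both WGP arrays were below both medium arrays. The fall of Tyms was -0.65 ± 0.18 (SE) on the log2 scale, alike on slide 1 (-0.67) and slide 2 (-0.62), with an adjusted p of 0.048 in limma, close to the threshold. Its direction held in all 15 alternatives, and its call in 6 of them. Among those 6, the mean of kept probes, the authors' table and the fits with replicate 3 files hold the same Tyms values, copies or averages. The rest of the 6, slide as a block and only probes well above background on all arrays, use the same Tyms values. None of the 6 is a separate check. The call was lost with median scaling (adjusted p = 0.145), quantile normalization (adjusted p = 0.0933), normexp (change -0.12, adjusted p = 0.394), no filter (adjusted p = 0.166) and every probe as a feature (adjusted p = 0.059). Leaving out any 1 array also ended it (adjusted p = 0.173 and 0.0846 for WGP replicates 1 and 2, 0.0744 and 0.196 for medium replicates 1 and 2). Mthfd1, the trifunctional cytosolic enzyme that recharges folate with formate, read 10.3 and 11.2 with WGP and 16.9 and 10.2 in medium, where replicate 2 was not well above background. Its arrays overlapped between groups, and the change of 0.13 ± 0.18 (SE, adjusted p = 0.596, interval -0.36 to 0.62) turned to -0.072 without medium replicate 2. The change of Mthfd1l minus that of Tyms was 1.66 ± 0.15 (SE), 1.51 on slide 1 and 1.80 on slide 2, and that of Mthfd1l minus that of Mthfd1 was 0.88 ± 0.21, 1.01 and 0.75 on the slides. Both had an exact permutation p of 0.333, again the smallest possible, over the 3 pairs compared, and an SE formed as for the Shmt pair. These pairs too were set side by side with the values known. Mthfd1l and Tyms are the tested members with the largest rise and the largest fall, so their wide gap follows from that choice.

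None of the 3 enzymes of serine synthesis passed the test. Phgdh, the dehydrogenase that commits phosphoglycerate to serine, read 20.0 and 15.5 with WGP and 24.8 and 15 in medium. After scaling, its level averaged -1.71 ± 0.20 with WGP and -2.00 ± 0.28 in medium (SD, n = 2 each), with overlap between the groups. The change of 0.29 ± 0.19 (SE) did not pass limma's test (adjusted p = 0.290, interval -0.24 to 0.81), and a second Phgdh probe gave 0.56 ± 0.41 (SE, adjusted p = 0.338). Psat1, the aminotransferase of the next step, read 41.4 and 32.8 with WGP and 44.3 and 35.6 in medium. Its level averaged -0.64 ± 0.18 with WGP and -0.95 ± 0.0073 in medium (SD, n = 2 each), and both WGP arrays were above both medium arrays. The change of 0.31 ± 0.13 (SE) did not pass (adjusted p = 0.121, interval -0.033 to 0.66) but passed with median scaling (change 0.47, adjusted p = 0.0434), and its dimmer second probe gave 0.034 ± 0.13 (SE, adjusted p = 0.861). Psph, the phosphatase that completes serine, read 12.2 and 18.6 with WGP and 27.1 and 20.3 in medium. Its WGP arrays lay far apart (SD 0.49) and enclosed the medium arrays, the change was -0.61 on slide 1 and 0.17 on slide 2, and the mean of -0.22 ± 0.26 (SE, adjusted p = 0.529, interval -0.92 to 0.48) turned to 0.13 without WGP replicate 1.

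**Figure D3:**
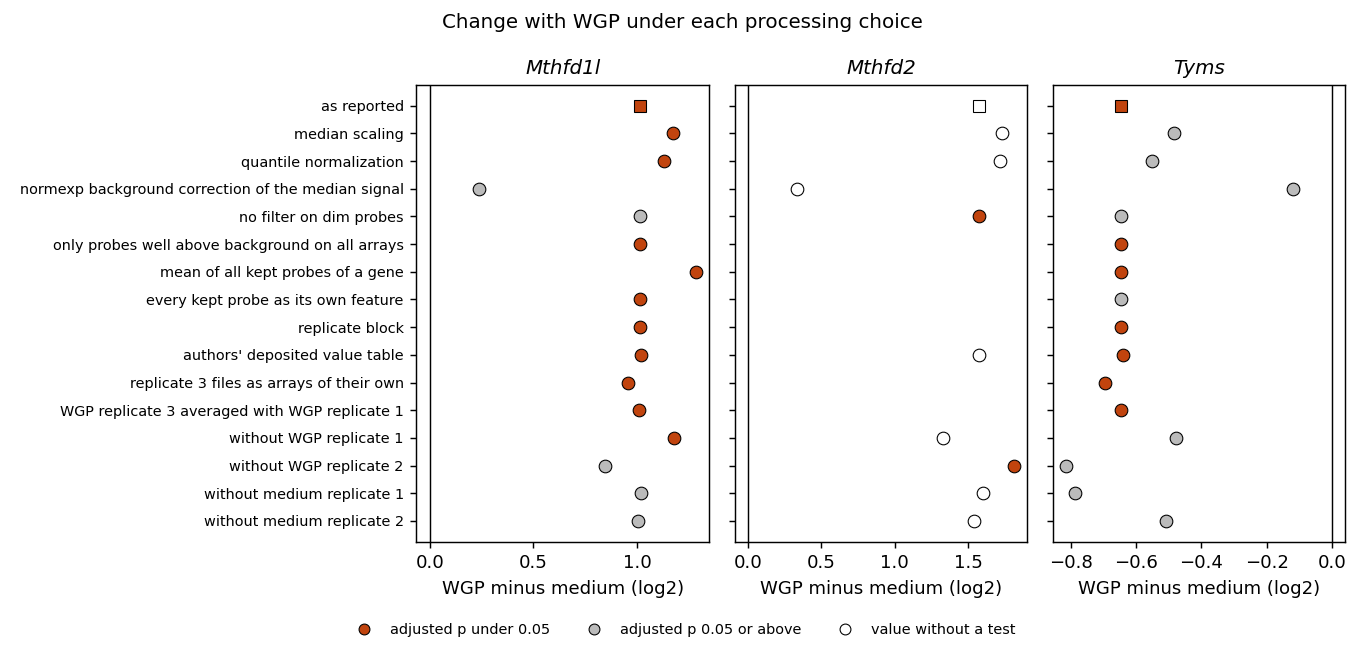
Change of Mthfd1l, Mthfd2 and Tyms (WGP minus medium, log2) as reported (squares) and under each alternative processing (circles), filled red where limma's adjusted p was under 0.05 and white where no test was made. The authors' table and the fits with replicate 3 files hold the same values or copies of them, so they are no separate check. Mthfd1l ranged from 0.24 to 1.28 and passed in 10 of 15 alternatives. Tyms ranged from -0.81 to -0.12 and passed in 6 of 15, all on the same Tyms values, copies or averages. The measured difference of Mthfd2, with medium arrays not well above background, ranged from 0.34 to 1.81. The red points of Mthfd2 rest on those medium arrays and support nothing.

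Of 21 further folate-cycle genes 16 were tested, and 2 were higher and 2 lower with WGP, with a median change of 0.15 (-0.02 with the mean of a gene's kept probes). With median scaling 3 were higher and 0 lower. The counts of this list and of those below stand beside 23.5% of all genes higher and 17.2% lower. Fpgs, the synthetase that adds the glutamate tail which holds folate in the cell, was 2.15-fold higher (level 0.92 ± 0.068 with WGP and -0.19 ± 0.0040 in medium, SD, n = 2 each, adjusted p = 0.00381 in limma) and kept its call in all 15 alternatives. Dld, a subunit of the glycine cleavage system and of other dehydrogenase complexes, was 1.46-fold higher. Tdh (threonine dehydrogenase) was 1.45-fold lower and Aldh1l1, the cytosolic enzyme that oxidises formyl-folate, 1.42-fold lower. The calls of Dld, Tdh and Aldh1l1 were lost in 6, 9 and 8 of 15 alternatives, and Tdh changed sign with normexp. Mthfd2l, the paralog of Mthfd2, changed by 0.26 ± 0.13 (SE, adjusted p = 0.193) and Gldc, the glycine decarboxylase, by 0.62 ± 0.30 (SE, adjusted p = 0.175), while Aldh1l2 was well above background on 0 arrays. Without WGP replicate 1, WGP replicate 2, medium replicate 1 or medium replicate 2, the folate-cycle counts were 2 higher and 1 lower, 1 and 1, 2 and 0, or 1 and 0.

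Of the carriers of serine, glycine and folate, 2 of 14 tested (of 16 listed) were higher and 3 lower, against 2 higher and 0 lower with median scaling and 2 higher and 1 lower with slide as a block. They had a median change of 0.11, which turned negative with quantile normalization (-0.045), normexp (-0.06) and without medium replicate 1 (-0.02). Slc6a9, the glycine transporter GlyT1, was well above background on both WGP arrays and on neither medium array. By a bound built as for Mthfd1l, and no stricter, it was at least 6.80-fold higher with WGP (adjusted p = 0.00824 in limma). It passed the filter through the WGP arrays alone, and that p sets them against medium values not well above background. Its measured means were -0.53 ± 0.034 with WGP and -4.43 ± 1.01 in medium (SD, n = 2 each), and leaving out WGP replicate 2 ended the call (adjusted p = 0.052). Slc25a32, which carries folate into mitochondria, was 1.94-fold higher (level -1.58 ± 0.14 with WGP and -2.53 ± 0.070 in medium, adjusted p = 0.00768) and lost its call without medium replicate 2 and with no filter on dim probes (highest adjusted p = 0.0544). The amino acid carriers Slc38a2 and Slc38a1 were 1.44-fold and 1.37-fold lower, and the mitochondrial carrier Sfxn2 1.28-fold lower. These 3 calls were lost in 7, 8 and 10 of 15 alternatives, and another kept probe of Slc38a1 had the opposite sign. The serine carriers Slc1a4 (0.48 ± 0.25, SE, adjusted p = 0.186) and Slc1a5 (0.17 ± 0.13, SE, adjusted p = 0.371) did not pass. The lower count was 0 without WGP replicate 1, WGP replicate 2 or medium replicate 2. In the methionine cycle and transsulfuration, 1 of 10 tested genes (of 16 listed) was higher and 1 lower. Mtr, the methionine synthase that takes its methyl group from folate, was 2.14-fold lower (-1.60 ± 0.37 with WGP and -0.51 ± 0.024 in medium, SD, n = 2 each, adjusted p = 0.0195), and Mat2a, which makes S-adenosylmethionine, was 1.36-fold higher. Mtr lost its call in 5 alternatives and Mat2a in 7, without WGP replicate 2, medium replicate 1 or medium replicate 2 in both cases.

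**Figure D4:**
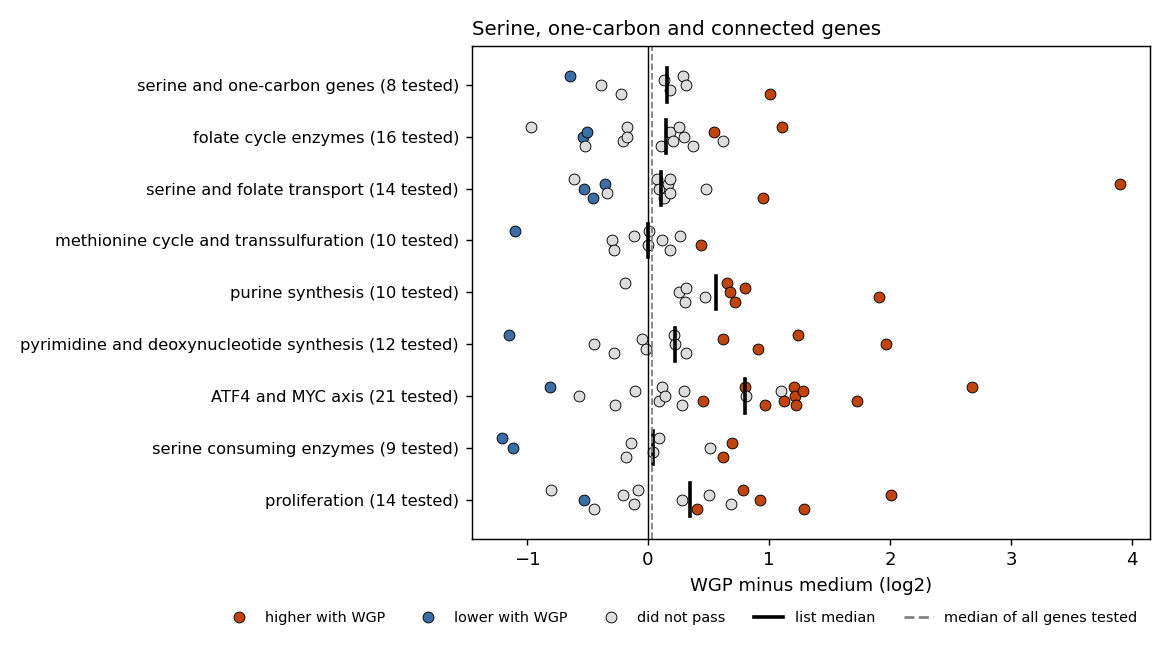
Change of every tested gene, WGP minus medium (log2), by pathway list, with red for higher and blue for lower in limma's test, grey for genes that did not pass, a black bar for the list median and a dashed line for the median of all genes tested. The medians of purine synthesis and of the ATF4 and MYC list lie at 0.56 and 0.80, those of the other lists between 0.002 and 0.35, and the point at the far right is Slc6a9 at its fitted value.

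Purine synthesis, which takes one-carbon units from formyl-folate, had 5 of 10 tested genes (of 13 listed) higher and 0 lower, with a median change of 0.56, beside 40.7% called and a median of 0.034 over all genes. Adssl1, an adenylosuccinate synthetase, was 3.76-fold higher (5.74 ± 0.035 with WGP and 3.83 ± 0.065 in medium, SD, n = 2 each, adjusted p = 0.00161) and was called in all 15 alternatives. Atic, the bifunctional enzyme that inserts the last formyl-folate carbon into the purine ring, was 1.75-fold higher (adjusted p = 0.00787). The enzymes of guanine nucleotide synthesis Impdh2, Impdh1 and Gmps were 1.65-fold, 1.60-fold and 1.57-fold higher, and Impdh1 lost its call with slide as a block. Gart, which uses the other formyl-folate, changed by 0.30 ± 0.099 (SE, adjusted p = 0.0742). The count of higher purine genes was 1 without WGP replicate 1, WGP replicate 2 or medium replicate 2, and 3 without medium replicate 1. Among 12 tested genes of pyrimidine and deoxynucleotide synthesis (of 17 listed), 4 were higher and 1 lower. Ctps, the CTP synthetase, was 3.91-fold higher (0.89 ± 0.011 with WGP and -1.08 ± 0.40 in medium, adjusted p = 0.00584, called in all 15 alternatives). Tk1, the cytosolic thymidine kinase that salvages thymidine, was 2.36-fold higher and Tk2, its mitochondrial counterpart, 2.21-fold lower, with Cmpk2 and Umps 1.88-fold and 1.54-fold higher. The calls of Tk1 and Tk2 were lost without WGP replicate 2 or medium replicate 2, that of Tk2 also without medium replicate 1, and those of Cmpk2 and Umps without either WGP array (Umps also without medium replicate 2). The count of higher genes on this list was 2, 1, 4 and 2 without WGP replicate 1, WGP replicate 2, medium replicate 1 and medium replicate 2.

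The ATF4 and MYC list had 10 of 21 tested genes (of 26 listed) higher and 1, Sesn2, lower (1.76-fold), with a median change of 0.80. That median was 0.53 without medium replicate 1, 0.52 without medium replicate 2 and 0.29 with normexp. Over all genes 23.5% were higher and 17.2% lower. The other 10 tested genes of the list did not pass, with changes of both signs, from -0.57 to 1.10. Atf4 itself was 3.30-fold higher (6.56 ± 0.14 with WGP and 4.83 ± 0.33 in medium, SD, n = 2 each, adjusted p = 0.00632). Its target Asns, the asparagine synthetase, was 2.34-fold higher (3.04 ± 0.051 with WGP and 1.82 ± 0.13 in medium, adjusted p = 0.00431). The partner factor Cebpb was 6.38-fold higher and the phosphatase regulator Ppp1r15a 2.44-fold, and these 4 genes were called in all 15 alternatives. Myc was among 5 listed genes that were well above background on 0 arrays. The higher count was 8 to 9 without any 1 of the 4 arrays.

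Markers of proliferation are given beside Tyms, whose transcript is known to peak in cycling cells. Of 20 listed 14 were tested, and 5 were higher and 1, E2f1, was lower (1.44-fold), with a median change of 0.35. Over all genes 23.5% were higher and 17.2% lower. The other 8 tested did not pass, with fitted changes of both signs, from -0.80 (WGP arrays not well above background) to 0.69. Mki67 was 4.02-fold higher (1.53 ± 0.065 with WGP and -0.47 ± 0.024 in medium, SD, n = 2 each, adjusted p = 0.00149) and the replication clamp gene Pcna 2.45-fold, both called in all 15 alternatives. Ccne1, Mcm3 and Mcm4 were 1.90-fold, 1.72-fold and 1.33-fold higher, and Top2a and Mcm2 were well above background on 0 arrays. Without 1 of the 4 arrays the higher count lay between 2 and 4, the lowest without WGP replicate 2, and E2f1 lost its call in 6 of 15 alternatives, median scaling among them. Their part in the change of Tyms was not tested. Gart, Gmps, Umps, Sfxn2, Sesn2, E2f1, Mcm4, Top2a and Mcm2 lie outside the rule for named genes and were picked with their values in view.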

How the data were processed

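The submitters' processing notes name Agilent Feature Extraction 10.7.3 as the program that read the 1-colour arrays. The intensity used, the deposited processed signal, is background-subtracted and not normalized between arrays, per the file headers. The well-above-background and outlier flags, of unit 0 or 1 rather than a score, were deposited with it. The authors' deposited table of log2 values matched the scanner values after centring each probe (correlation 0.9999 over 39394 probes, largest difference 0.00891). Its column medians were 0.0997, 0.13 and 0.1 for WGP replicates 1 to 3 and -0.0145, 0.164 and 0.103 for medium, its direction was that of the signals, the baseline each probe was centred on is unknown, and it served as an alternative.

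Replicates 1 and 2 entered the fits and the files of replicate 3 did not. Control spots (1377) and outlier-flagged spots were left out, and 0 spots were saturated. Spots of a probe were averaged. Probes were named through their accession in RefSeq's GRCm38.p6 table (67.87% of 39429). A probe was kept if well above background (at least 0.5 of its spots) on both arrays of at least 1 group, and the brightest kept probe stood for a gene. WGP was set against medium by lmFit and eBayes of limma 3.58.1 (R 4.3.3; Benjamini-Hochberg over 10948 genes, threshold 0.05), which was tested first on simulated data. For replicates 1 and 2 the labels' replicate numbers were slides per the file headers. The header of WGP replicate 3 gave slide 1, and that of medium replicate 3 gave a slide 3, although its spot values were those of medium replicate 1. Deviations from the group means correlated at 0.14 between same-numbered arrays (2 pairs), so the slide was an alternative. The normexp alternative used the median signal, since the files hold no mean signal. The small number of arrays and the dimness of some probes limit precision, and intensities carry no counts.

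Named were all 9 genes, fixed pathway genes and up to 4 called genes of each list by size of change. Some genes that this rule names are not reported here. The genes, lists and alternatives were chosen with earlier results of these data known.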

Additional observations from a re-analysis of the deposited data

How the results depend on the processing

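Limits: 2 arrays per group, dim probes (the members' kept signals lay all below their array's 75th percentile) and 1 deposited replicate per group without an array of its own. Over all genes, 4461 changed as reported, 1541 with no filter on dim probes, 7438 with the replicate 3 files as arrays of their own, 4081 with the replicate block (37.3% of genes) and 1633 to 3329 without 1 of the 4 arrays, where the lone array of a group was assumed to vary like the other group. The block changed no member's call (Mthfd1l adjusted p = 0.0186, Tyms adjusted p = 0.0251, limma). Among the other genes named, it ended the calls of Dld, Aldh1l1, Slc38a1, Sfxn2, Mat2a, Impdh1 and Mcm4 and no others. The count of members that were higher was 1 as reported, 2 with median scaling, 0 with normexp, 3 with the replicate 3 files as arrays and 0 to 1 without 1 array. The 1 called with no filter and without WGP replicate 2 was Mthfd2, not Mthfd1l. Mthfd2 was set there against medium values not well above background, and in the second case was kept through the lone WGP array, so these calls support nothing. The count of members that were lower was 1 as reported, 0 with median scaling, quantile normalization, normexp, no filter or every probe as a feature, 2 with the replicate 3 files as arrays and 0 without any 1 of the 4 arrays. Psph turned to 0.13 without WGP replicate 1 and ranged from -0.57 to 0.13 without 1 array, and Mthfd1 turned to -0.072 without medium replicate 2 and ranged from -0.072 to 0.33. The other 7 members kept their direction in every alternative that gave a value. The cause of these shifts was not tested. With no filter the genes tested rose to 20274, and normexp's offset of 50 shrinks differences between dim signals by construction. Averaging WGP replicate 3 with replicate 1 moved 0 calls among the members. That alternative, the authors' table and the replicate 3 files as arrays hold the same values, or copies or averages of them. A call kept there is no separate support for any gene.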

Other observations

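The genes whose levels over the 4 arrays lay nearest to those of Mthfd1l, each centred on its own mean, were Pus1 (a pseudouridine synthase, root mean square difference 0.031 on the log2 scale), Olfml3 (0.038) and Tnip3 (0.048), with changes of 0.98, 0.99 and 1.04. With 4 arrays this is a description.

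Among 9 tested genes of serine use, 2 were higher and 2 lower with WGP, and the 4 were not all enzymes. Sptlc2, a subunit of the transferase that starts sphingolipid synthesis from serine, was 1.62-fold higher, and Serinc1, of the serine incorporator family by name, 1.54-fold higher. Its relatives Serinc3 and Serinc5 were 2.17-fold and 2.30-fold lower (adjusted p = 0.00626 and 0.00452, limma). Serinc3 was called in all 15 alternatives and Serinc5 in all but normexp, while Sptlc2 lost its call in 3 and Serinc1 in 4, among them those without WGP replicate 1 or WGP replicate 2 and, for Serinc1, medium replicate 2.

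With the files of replicate 3 counted as arrays of their own, 5 of the 8 tested members would have been called (Psat1, Shmt1, Shmt2, Mthfd1l and Tyms), against 2 on the independent arrays, while 67.9% of all genes were called in that fit and 40.7% on the independent arrays. The adjusted p of Psat1 was 0.00858 in that fit and 0.121 without those files, that of Shmt1 0.0195 and 0.128, and that of Shmt2 0.024 and 0.233. Their changes were 0.36 with those files and 0.31 without for Psat1, -0.37 and -0.39 for Shmt1, and 0.17 and 0.18 for Shmt2.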
